A study of Mus musculus with 2 samples.

Results

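The GIMAP genes (GTPases of immunity-associated proteins) were followed through single-cell transcript counts of mouse blood stem cells. The members were the listed genes Gimap1, Gimap3, Gimap4, Gimap5, Gimap6, Gimap8 and Gimap9, which are 7 of the 8 Gimap features and 7 of the 28205 gene features counted. They were chosen, and so were the transcripts used to split the cells, with earlier results of these data in view, so the values below are a description. The cells were one pool of bone marrow depleted of cells with B220, Gr1, Ter119, CD4 or CD8. One part of the pool was sorted as DAPI-GFP+ alone from Mds1-GFP/+ Flt3-Cre mice, whose GFP cassette (loxP-IRES-GFP-polyA-loxP) lies between loxP sites and can be removed by Cre. The rest were long-term hematopoietic stem cells (LT-HSCs) of wild-type mice, sorted as DAPI-Lin-cKit+Sca+CD48-CD150+ and added because GFP cells are rare. The sources used here give neither the number nor the age of the mice, and the Flt3 promoter drives the Cre.

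GIMAP proteins share a GTP-binding domain of the AIG1 type, and most sit on intracellular membranes. They are best known from lymphocytes, in which several members affect survival. In mice that lack Gimap5, T cells are lost and blood stem cells are impaired. The family is encoded in one cluster of neighbouring genes.

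That cluster lay on chromosome 6, at chr6:48647234-48770851 of GRCm38, a stretch of 123618 bases. Along it stood Gimap8, Gimap9, Gimap4, Gimap6, Gimap7, Gimap1, Gimap5 and Gimap3, all annotated as protein-coding, with Gimap6 and Gimap3 on the minus strand and the others on the plus strand. An antisense transcript, Gimap1os, overlaps Gimap1 and was not among the features, and whether counting used strand is not stated, so its reads may not be told apart from those of Gimap1. A read-through gene, Gm28053, spans Gimap7, Gimap1 and part of Gimap5 and was listed at 0 UMIs.

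All 7 members had a promoter in the RefSeq table (GRCm38.p6), from 250 bases before to 50 bases after the start. The promoters of Gimap1 and Gimap6 are shown because these were the members with most transcripts, and that of Gimap4 because it was the member with the widest differences between cell sets. Capitals mark GGAAGT or its reverse complement ACTTCC, a core recognised by ETS factors.
Gimap1, chr6:48738797-48739096, plus strand: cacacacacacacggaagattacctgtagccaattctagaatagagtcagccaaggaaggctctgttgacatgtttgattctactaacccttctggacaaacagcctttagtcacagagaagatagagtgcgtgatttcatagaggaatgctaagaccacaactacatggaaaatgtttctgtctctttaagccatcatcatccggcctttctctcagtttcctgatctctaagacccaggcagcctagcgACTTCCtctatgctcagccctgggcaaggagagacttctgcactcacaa
Gimap6, chr6:48708195-48708494, minus strand: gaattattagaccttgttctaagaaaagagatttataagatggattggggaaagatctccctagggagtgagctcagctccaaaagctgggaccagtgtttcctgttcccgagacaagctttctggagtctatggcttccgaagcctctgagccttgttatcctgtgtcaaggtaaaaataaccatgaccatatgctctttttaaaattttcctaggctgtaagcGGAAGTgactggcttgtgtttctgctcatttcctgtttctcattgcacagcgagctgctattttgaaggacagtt
Gimap4, chr6:48684328-48684627, plus strand: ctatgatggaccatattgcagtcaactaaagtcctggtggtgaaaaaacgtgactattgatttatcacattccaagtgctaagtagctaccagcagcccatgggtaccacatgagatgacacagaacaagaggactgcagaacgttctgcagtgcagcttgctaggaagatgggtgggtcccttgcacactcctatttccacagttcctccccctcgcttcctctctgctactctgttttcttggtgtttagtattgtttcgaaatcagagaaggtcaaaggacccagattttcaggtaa
On both strands, GGAAGT was found for 4 of 7 members, Gimap1, Gimap5, Gimap6 and Gimap9, and in 23.8% of all 32851 promoters of that length. TGTGGT, a RUNX core, was found for Gimap1 and Gimap4 and in 16.8% of all promoters. AGATAA, the core of the GATA family, was found for 0 members and in 11.2% of all promoters. TATAAA was found for Gimap6 and in 13.6%. No matches of different motifs overlapped in the members' promoters. These matches are letters in a window and say nothing about binding.

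Of 10809 barcodes, 3402 held at least 500 unique molecular identifiers (UMIs, each marking 1 captured transcript) and at most 20% mitochondrially encoded UMIs. These kept cells carried 5668067 UMIs. The pool was split into 2 aliquots, which are technical and not replicates, so n = 1 for every value. Aliquot 1 had 1574 kept cells with a median of 946.5 UMIs, and aliquot 2 had 1828 with a median of 2071.5. The aliquots shared 461 barcodes, 55 of them kept in both. Without those 110 cells the summed level of the family was 472 CPM, and its ratios in the splits below were 1.56 for Procr, 0.864 for Cd34, 0.474 for G2/M, 1.40 for Cd74 and 1.08 for GFP, each within the interval given there. All 18 genes of the LT-HSC list were detected, and 3244 of the 3402 cells held at least 1 of their UMIs.

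GIMAP transcripts were well represented in these stem cells. Together the 7 members gave 2658 UMIs, 469 counts per 1e6 UMIs (CPM; 95% interval 451 to 487), and 1480 cells, 43.5% (41.8 to 45.2%), held at least 1. The summed level was 448 CPM (416 to 482) in aliquot 1 and 477 CPM (456 to 499) in aliquot 2, so the aliquots lay within counting error of each other. Intervals here and below cover counting error only. Gimap6 and Gimap1 carried 33.6% and 30.1% of the family's UMIs.

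Gimap6, which in T cells takes part in autophagy and binds a protein of the ATG8 family, was at 129 CPM (112 to 148) in aliquot 1 and 169 CPM (157 to 182) in aliquot 2. The level in aliquot 2 was 1.31 times (1.12 to 1.53) that in aliquot 1, the one member whose interval excluded 1. Gimap1, which mouse T and B cells need for survival, was at 133 CPM (116 to 152) in aliquot 1 and 144 CPM (133 to 156) in aliquot 2. Pooled, Gimap6 was at 158 CPM (147 to 168) and Gimap1 at 141 CPM (131 to 151). Their pooled intervals overlap, as do those of the next pair.

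Gimap8, a long member with several GTPase domains, was at 71.9 CPM (59.5 to 86.1) in aliquot 1 and 59.8 CPM (52.5 to 67.9) in aliquot 2. Gimap9 was at 65.2 CPM (53.4 to 78.8) in aliquot 1 and 56.1 CPM (49.0 to 63.9) in aliquot 2. Both lay well below Gimap1 and apart from Gimap5 in each aliquot.

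Gimap5, the member tied to stem cell maintenance in mice, was at 28.6 CPM (21.05 to 38.1) in aliquot 1 and 31.04 CPM (25.8 to 37.0) in aliquot 2. Gimap4, which speeds the death of T cells, was at 17.7 CPM (11.8 to 25.4) in aliquot 1 and 15.9 CPM (12.2 to 20.3) in aliquot 2. Gimap3, a close relative of Gimap5, had 9 UMIs in all, 1.59 CPM (0.726 to 3.01), 3 in aliquot 1 and 6 in aliquot 2. Gimap7, which is no member, had 10 UMIs. The order Gimap6, Gimap1, Gimap8, Gimap9, Gimap5, Gimap4, Gimap3 is one of CPM. Divided by the length of the longest coding transcript it began with Gimap1 at 94.4 CPM per kb, then Gimap6 at 49.6, Gimap9 at 42.4, Gimap8 at 20.04, Gimap5 at 15.5, Gimap4 at 9.10 and Gimap3 at 0.740. Each UMI marks 1 captured transcript whatever its length, so the order by CPM is that of captured transcripts. Whether capture depends on length was not tested. Among the 22476 genes with a UMI, Gimap6 ranked 1047 and Gimap1 1197 by UMIs.

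**Figure D1:**
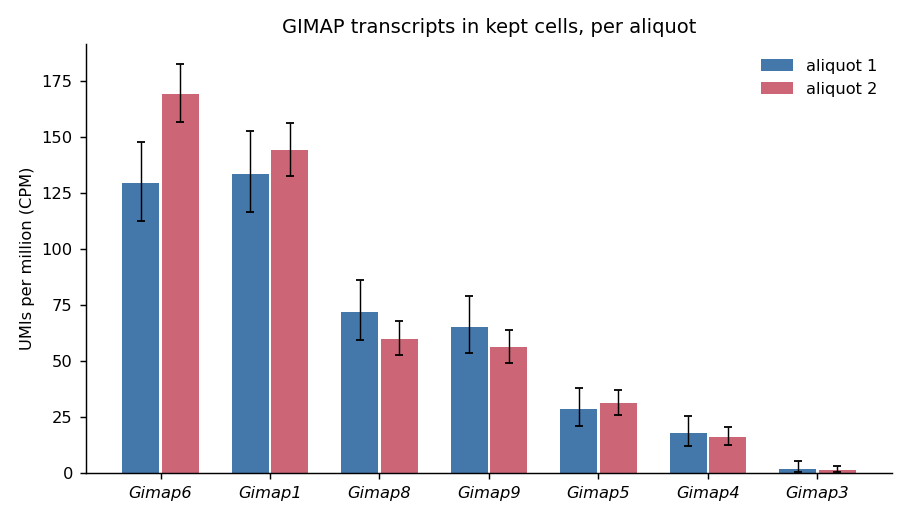
Level of each GIMAP member in the kept cells of aliquot 1 (1574 cells) and aliquot 2 (1828 cells), in CPM, with exact Poisson 95% intervals. Gimap6 and Gimap1 are the tallest in both aliquots, and Gimap3, with 9 UMIs, is near 0.

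A UMI of Gimap6 was found in 655 cells, 19.3% (17.9 to 20.6%), and one of Gimap1 in 598, 17.6% (16.3 to 18.9%). Gimap8 was found in 7.91% of cells, Gimap9 in 7.05%, Gimap5 in 4.09%, Gimap4 in 1.97% and Gimap3 in 0.265%. At an equal depth of 500 UMIs per cell the family would be found in 20.9% of cells, 20.8% in aliquot 1 and 20.99% in aliquot 2. So the unthinned shares of 34.1% in aliquot 1 and 51.6% in aliquot 2 met at matched depth. Most positive cells held a single UMI: 847 cells had 1 family UMI, 349 had 2 and 284 had 3 or more. One cell of 1350 UMIs held 16 family UMIs, 14 of them Gimap8.

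Barcodes of 500 to under 600 UMIs, just inside it, had 574 CPM (429 to 753) of the family, and those of 400 to under 500 UMIs, just outside, had 405 CPM (275 to 574), with overlapping intervals. Across depth the summed level was lower in deeper cells, at 599 CPM (548 to 654) for 500 to under 1000 UMIs, 519 CPM (486 to 553) for 1000 to under 2000, 433 CPM (408 to 460) for 2000 to under 4000 and 240 CPM (198 to 288) for 4000 or more. The last bin held 101 cells, all of aliquot 2, in which Gimap4 had 0 UMIs and Gimap8 was at 8.27 CPM (2.25 to 21.2). In that bin 83 of the 101 cells had at least 3 UMIs of the G2/M list used below. In cells with fewer, the family was at 613, 581, 505 and 151 CPM in the bins from 500, 1000, 2000 and 4000 UMIs. The last of these values came from 18 cells. In cells with at least 3 such UMIs it was at 290, 212, 271 and 257 CPM in the same bins. The part of cell cycle in the trend over depth was not tested.

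Free RNA from broken cells can add UMIs to any droplet. Barcodes under 200 UMIs, which were taken as mostly empty droplets, had 627 CPM (377 to 979) of the family in aliquot 1 and 557 CPM (495 to 625) in aliquot 2, no lower than kept cells. The 34 cells with at least 20 UMIs of granulocyte genes such as Elane and Mpo, at a median of 2273.5 UMIs, had 51.9 CPM (16.9 to 121), and the other 3368 cells, at a median of 1410.5 UMIs, had 476 CPM (458 to 495). At 500 UMIs the family would be found in 4.02% of the granulocyte-gene cells and in 21.1% of the others.

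Because the family is known from lymphocytes, markers of other cells were read beside it. Of the 10 T cell features, 1 was at 0 (Cd3g), Cd3e had 3 UMIs and Il7r had 2, while Cd8b1 had 209 and Cd3d 52. Of the 9 B cell features, Vpreb3 was at 0 and Cd79a and Ms4a1 had 3 UMIs each, against 120 of Cd79b. The T cell list summed to 66.7 CPM over all cells, 67.4 CPM in cells with a family UMI and 66.04 CPM in cells without. The family stood at 397 CPM (367 to 428) in the 764 cells with a T, B or NK list UMI and at 499 CPM (477 to 522) in the 2638 cells without one. The NK cell list had 547 UMIs, 338 of Nkg7 and 170 of Rora, with Klrd1 and Gzma at 0, and stood at 84.6 CPM in cells with a family UMI and 108 CPM in cells without. The endothelial list moved with the family, at 162 CPM in cells with a family UMI and 102 CPM in cells without. Of its 743 UMIs 635 were Tie1, also a gene of blood stem cells, while Cdh5 had 1 UMI, and its part in the results was not tested.

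Procr encodes the endothelial protein C receptor, a surface marker of mouse LT-HSCs. In the 540 cells with a Procr UMI the summed family was at 673 CPM (621 to 728), and in the 2862 cells without one at 429 CPM (411 to 448), a ratio of 1.57 (1.43 to 1.72). In aliquot 1 it was at 635 CPM in Procr cells and 423 CPM in the others, and in aliquot 2 at 683 and 432 CPM, so both aliquots gave the higher level in Procr cells. Of the 6 members past a minimum of 10 UMIs, found or expected, in the smaller set of cells, 4 reached a ratio of 1.5, namely Gimap4, Gimap5, Gimap6 and Gimap8, beside 9.19% of all genes compared. None of the 6 lay at or below the inverse of 1.5, beside 9.42% of all genes. The median log2 ratio was 0.83 for these members and 0.00 for all genes.

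Gimap6 was at 238 CPM in cells with Procr and 142 CPM in cells without, 1.68 times (1.43 to 1.96). At matched depth its share would be 10.9% with Procr and 7.09% without. Gimap8 was at 104 CPM with Procr and 55.4 CPM without, 1.87 times (1.47 to 2.38), or 1.60 times (1.24 to 2.06) without the cell holding 14 of its UMIs. Over both aliquots the intervals of Gimap6 and Gimap8 stayed above 1. In aliquot 1 they included 1, at 1.48 times (0.998 to 2.13) for Gimap6 and 1.43 times (0.829 to 2.36) for Gimap8. In aliquot 2 the ratios were 1.68 (1.41 to 2.00) and 2.12 (1.59 to 2.79). Gimap5 was at 49.8 CPM with Procr and 26.6 CPM without, 1.87 times (1.31 to 2.65), but the aliquots parted, with 0.890 times (0.275 to 2.25) in aliquot 1 from 5 UMIs in Procr cells and 2.20 times (1.48 to 3.24) in aliquot 2. Gimap4 was at 28.1 CPM with Procr and 14.1 CPM without, 1.99 times (1.22 to 3.18). It was 3.36 times (1.35 to 7.73) in aliquot 1, 1.63 times (0.879 to 2.90) in aliquot 2 and 1.69 times (0.994 to 2.77) without its highest cell, and the interval included 1 in the last and in aliquot 2. Gimap1 and Gimap9 were closer to even, at 1.33 times (1.11 to 1.58) and 1.34 times (1.01 to 1.75).

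The level also went with the number of Procr UMIs. The family was at 429, 606, 779 and 826 CPM in cells with 0, 1, 2 and 3 or more Procr UMIs, the last from 63 cells with an interval of 677 to 997. Gimap8 followed that order from 55.4 to 161 CPM (99.4 to 245). Its UMIs at 1, 2 and 3 or more Procr UMIs were 53, 22 and 21. One Procr cell held 14 of these, and the order without that cell was not tested. Gimap9, by contrast, was highest at 1 Procr UMI (83.0 CPM) and at 38.2 CPM (12.4 to 89.2) in the last step. Procr cells also differed in other transcripts: the G2/M list summed to 822 CPM with Procr and 1566 CPM without, and the MHC class II list to 808 and 528 CPM. In cells under 3 G2/M UMIs the family ratio was 1.44 (1.31 to 1.59). It was 1.38, 1.50 and 1.70 in the depth bins from 500, 1000 and 2000 UMIs. In the bin from 4000 UMIs, with 9 Procr cells, it was 0.928 (0.413 to 1.83).

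Cd34, a surface sialomucin that progenitors carry more of than mouse LT-HSCs do, marked the smaller of the differences. The family was at 424 CPM (395 to 455) in 918 cells with a Cd34 UMI and at 491 CPM (469 to 513) in 2484 without, 0.865 times (0.795 to 0.941). Within strata of depth and aliquot the ratio was 0.949, and the median depth was 1818.5 UMIs with Cd34 and 1265.5 without. By depth it was 1.03 (0.806 to 1.31), 0.928 (0.799 to 1.07), 0.913 (0.805 to 1.04) and 1.18 (0.805 to 1.75) in the bins from 500, 1000, 2000 and 4000 UMIs, each with an interval that included 1. Gimap4 alone, 1 of 6 members, lay at or below the inverse of 1.5, beside 6.68% of all genes, and 0 members reached 1.5, beside 5.54%. It was at 8.63 CPM in Cd34 cells and 20.2 CPM in the others, 0.427 times (0.233 to 0.739). The ratio was 0.229 in aliquot 1 and 0.496 in aliquot 2. Gimap1, at 0.981 times (0.842 to 1.14), and Gimap6, at 0.930 times (0.804 to 1.07), had intervals that included 1. Gimap8 was at 0.740 times (0.579 to 0.939), Gimap5 at 0.729 (0.507 to 1.03; 1.06 in aliquot 1 and 0.635 in aliquot 2) and Gimap9 at 0.785 (0.611 to 1.00). By both transcripts, the family was at 582 CPM (490 to 687) in cells with Procr and Cd34, 705 CPM (644 to 771) with Procr only, 401 CPM (371 to 433) with Cd34 only and 444 CPM (421 to 468) with neither.

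**Figure D2:**
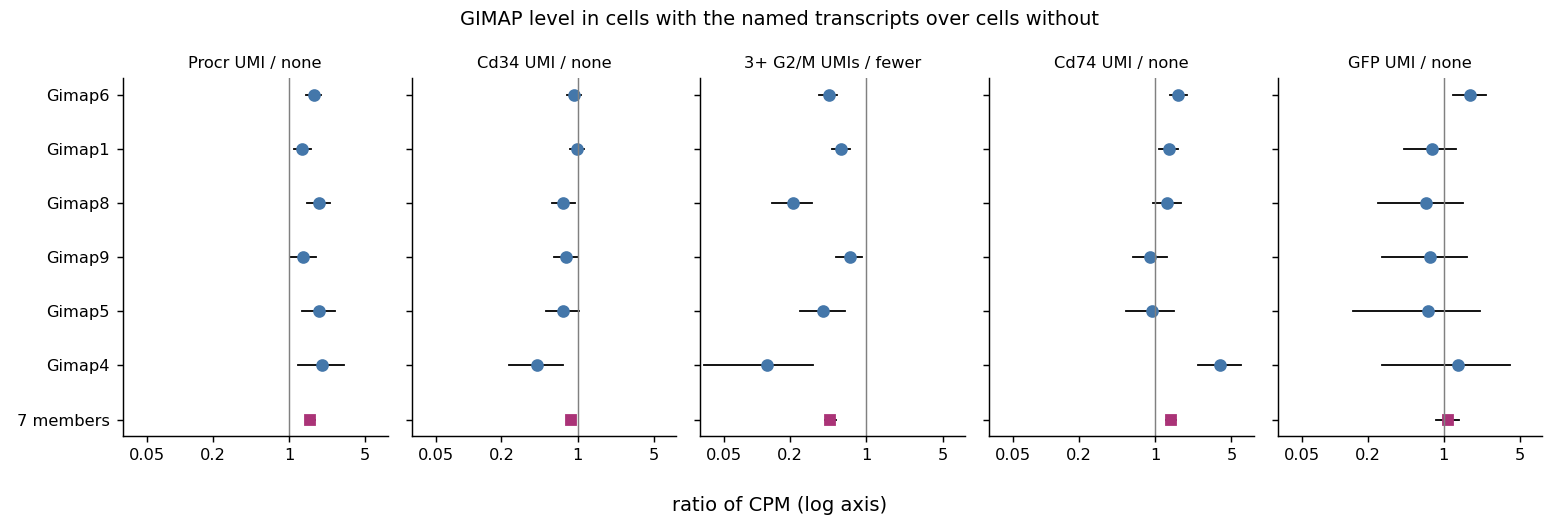
Ratio of CPM (log axis) of each member and of the 7 summed between cells with the named transcripts and cells without, with exact 95% intervals. The G2/M panel lies left of 1 for all 6 members shown, with Gimap4 at 0.123, and the Cd74 panel has Gimap4 at 3.92; Gimap3 is not drawn, having 9 UMIs.

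The widest differences were in cells with G2/M transcripts, of a list of 20 genes used in mitosis such as Mki67, Top2a and Cdk1. In the 594 cells with at least 3 such UMIs the family was at 256 CPM (231 to 282), and in the other 2808 at 547 CPM (525 to 570), a ratio of 0.467 (0.418 to 0.521). The levels in aliquot 1 were 178 CPM in G2/M cells and 519 CPM in the others, and in aliquot 2 278 and 560 CPM. Of 6 members, 5 lay at or below the inverse of 1.5, beside 15.3% of all genes compared, and 0 reached 1.5, beside 11.7%. Their median log2 ratio was -1.24, and that of all genes -0.05.

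Gimap4 was at 2.63 CPM (4 UMIs) in G2/M cells and 21.4 CPM (89 UMIs) in the others, 0.123 times (0.0328 to 0.326). In aliquot 1 its 29 UMIs all fell in cells outside the G2/M set. Gimap8 was at 17.1 CPM in G2/M cells and 80.2 CPM in the others, 0.213 times (0.137 to 0.318). Aliquot 1 gave 0.0991 and aliquot 2 gave 0.256. At 500 UMIs per cell, Gimap8 would be found in 0.745% of G2/M cells and in 4.06% of the others. Gimap5 was at 14.5 and 36.1 CPM in G2/M and other cells, 0.401 times (0.244 to 0.630). Aliquot 1 had 0.259 and aliquot 2 had 0.434. Gimap6 was at 83.0 and 185 CPM in the same order, 0.449 times (0.369 to 0.543). Gimap1 was at 92.9 CPM in G2/M cells and 159 CPM in the others, 0.586 times (0.485 to 0.704). Its ratio was 0.361 (0.213 to 0.579) in aliquot 1 and 0.646 (0.524 to 0.790) in aliquot 2. Gimap9 was the member nearest to even, at 44.8 CPM and 63.9 CPM, 0.701 times (0.529 to 0.919). Over both aliquots the intervals of Gimap4 and Gimap8 did not reach those of Gimap1 and Gimap9, but in aliquot 1 alone those of Gimap1 and Gimap8 (0.0201 to 0.297) overlapped.

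Cells with more G2/M UMIs had less of the family. It was at 593 CPM (564 to 623) with 0 such UMIs, 467 CPM (434 to 503) with 1 to 2, 330 CPM (279 to 388) with 3 to 5 and 224 CPM (196 to 254) with 6 or more. Gimap6 followed at 203, 154, 97.6 and 76.8 CPM and Gimap1 at 174, 131, 124 and 79.7 CPM. Gimap8 was level between 0 and 1 to 2 UMIs, at 80.7 and 79.5 CPM, and then stood at 24.4 and 14.1 CPM. Gimap5, at 40.7, 28.3, 31.04 and 7.50 CPM, was lowest in the last step. Median depth rose over the same steps, at 1063, 1765, 2162.5 and 2344 UMIs, and the order of the steps at matched depth was not tested.

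**Figure D3:**
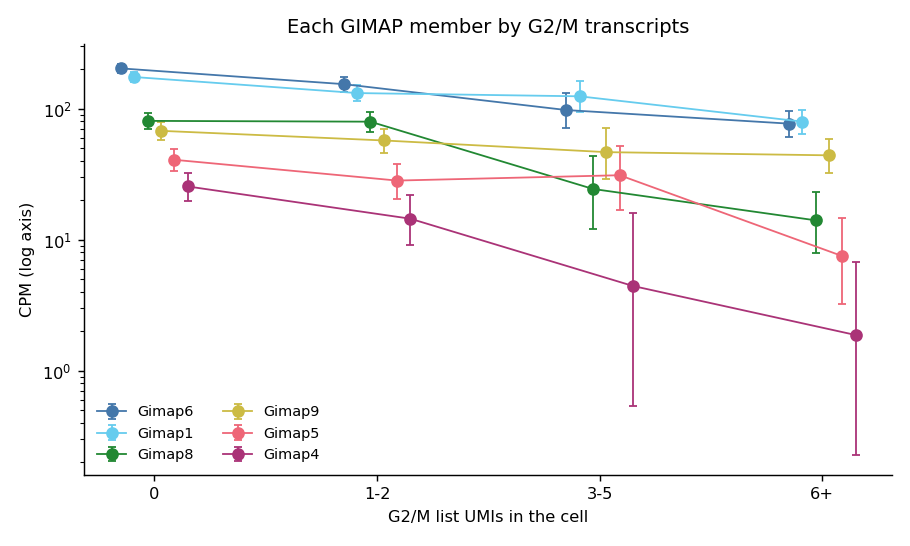
Level of 6 members (CPM, log axis) in cells grouped by UMIs of the 20-gene G2/M list, with exact Poisson 95% intervals. All 6 are lower at 6 or more UMIs than at 0, from 67.7 to 44.0 CPM for Gimap9 and from 25.5 to 1.87 CPM for Gimap4.

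G2/M cells were deeper, with a median of 2295 UMIs and 1245 in the others. The difference was also present per cell, with 0.280 family UMIs per G2/M cell and 0.497 per other cell in aliquot 1, and 0.870 and 1.099 in aliquot 2. Of the 34 granulocyte-gene cells 28 were in the G2/M set, and without all 34 the ratio was 0.492. By depth the ratio was 0.473 (0.226 to 0.878), 0.364 (0.279 to 0.468) and 0.537 (0.459 to 0.625) in the bins from 500, 1000 and 2000 UMIs. In the bin from 4000 UMIs, with 83 G2/M and 18 other cells, it was 1.71 (0.938 to 3.41), an interval that included 1. The LT-HSC list was lower in G2/M cells as well, at 2285 CPM and 4058 CPM in the others, a ratio of 0.563.

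Cd74 encodes the invariant chain of MHC class II, an antigen presentation gene. In the 355 cells with a Cd74 UMI the family was at 629 CPM (571 to 693), and in the 3047 without at 447 CPM (429 to 466), 1.41 times (1.26 to 1.56). Of 6 members, 2 reached a ratio of 1.5, Gimap4 and Gimap6, beside 8.91% of all genes, and 0 lay at or below its inverse, beside 10.1%. Gimap4 stood at 47.8 CPM (32.7 to 67.5) in Cd74 cells and 12.2 CPM (9.33 to 15.7) in the others, 3.92 times (2.47 to 6.11). The ratio was 5.53 (2.12 to 13.01) in aliquot 1 and 3.69 (2.13 to 6.27) in aliquot 2. It was 3.31 (2.03 to 5.30) without its highest cell and 3.49 (2.18 to 5.48) in cells under 3 G2/M UMIs, so the difference remained in each. Its UMIs lay in 20 of the 355 Cd74 cells and in 47 of the others, shares that would be 2.72% and 0.711% at matched depth.

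Gimap6 was at 239 CPM with Cd74 and 147 CPM without, 1.63 times (1.37 to 1.94). It was 1.35 times (0.782 to 2.19) in aliquot 1, an interval that included 1, and 1.62 times (1.34 to 1.95) in aliquot 2. Gimap1 was at 1.33 times (1.09 to 1.62), with 2.13 (1.38 to 3.18) in aliquot 1 but 1.17 (0.931 to 1.47) in aliquot 2. Gimap8, at 1.29 times (0.948 to 1.74), Gimap5, at 0.928 (0.544 to 1.50), and Gimap9, at 0.906 (0.622 to 1.28), had intervals that included 1. For Gimap5 the aliquots parted, at 2.54 (0.961 to 5.74) in aliquot 1, from 7 UMIs in Cd74 cells, and 0.653 (0.328 to 1.19) in aliquot 2. The family did not follow the number of Cd74 UMIs step by step, with 447, 635, 765 and 518 CPM at 0, 1, 2 and 3 or more, nor did Gimap4, at 12.2, 42.6, 98.1 and 27.6 CPM. The G2/M list was at 807 CPM in Cd74 cells and 1530 CPM in the others, and in cells under 3 G2/M UMIs the family ratio was 1.25 (1.11 to 1.40). Of the B cell markers, Cd79a and Ms4a1 had 3 UMIs each in all kept cells and Cd79b had 120. The B cell list summed to 26.9 CPM in Cd74 cells and 33.4 CPM in the others. That was 0.806 times (0.466 to 1.31), an interval that included 1. The part of B cell transcripts in the result was not tested.

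**Figure D4:**
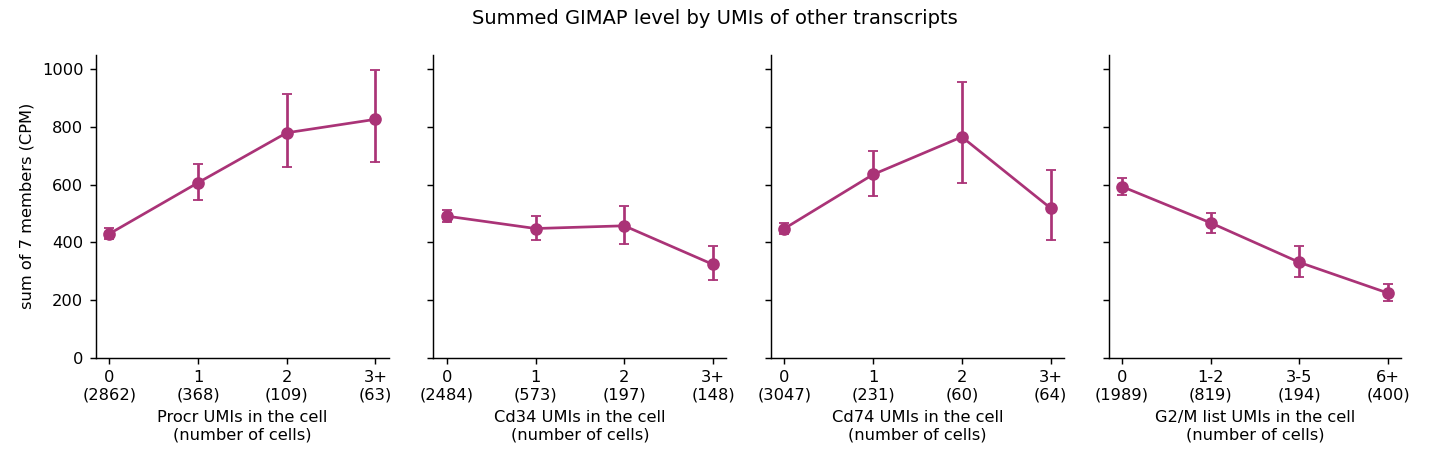
Summed level of the 7 members (CPM, exact Poisson 95% intervals) in cells with the given UMIs of Procr, Cd34, Cd74 and the G2/M list, with cell numbers in brackets. The family is at 826 CPM with 3 or more Procr UMIs and 224 CPM with 6 or more G2/M UMIs.

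GFP transcripts, the sign of the reporter mice, were found in 71 kept cells, while the series design states 46 GFP cells after its own filter. A cell without a GFP UMI may still come from the reporter mice, and sort, strain and source of the cells cannot be told apart. The family was at 511 CPM (398 to 645) in GFP cells and 468 CPM (450 to 486) in the other 3331, 1.09 times (0.848 to 1.38), so a difference was not detectable at this depth. It was at 468, 527 and 493 CPM in cells with 0, 1 and 2 or more GFP UMIs. Gimap6 and Gimap1 alone had enough UMIs. The first was at 270 CPM (37 UMIs in 22 cells) in GFP cells and 155 CPM in the others, 1.74 times (1.22 to 2.42), which makes 1 member at 1.5 beside 18.1% of all genes. Its ratio was 3.05 (1.37 to 5.91) in aliquot 1, from 9 UMIs in GFP cells, 1.48 (0.975 to 2.16) in aliquot 2 and 1.59 (1.08 to 2.24) without its highest GFP cell. At 500 UMIs it would be found in 12.2% of GFP cells and 7.60% of the others. Gimap1 was at 109 CPM in GFP cells and 142 CPM in the others, 0.772 times (0.430 to 1.28), with 1 UMI in GFP cells of aliquot 1 and 0.853 times (0.463 to 1.44) in aliquot 2. The T cell list moved with Gimap6 in this split, at 117 CPM in GFP cells and 65.4 CPM in the others, 1.78 times (1.01 to 2.94). Its 16 UMIs in GFP cells, of which 8 were Cd8b1, lay in 11 cells, while 6 of the 10 features, among them Cd3e, Cd3g and Cd4, were at 0 there. In the 60 GFP cells with no T list UMI Gimap6 was at 249.9 CPM. The remaining members had 0 to 6 UMIs in GFP cells.

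Members were seen together in the same cell less often than depth and mean rates would give. At Poisson rates set by the mean of each aliquot, 800 shared cells were expected in sum over the 21 pairs. The sum found was 586, a ratio of 0.733 (0.675 to 0.795). A cell with 3 or more members was counted once for each of its pairs. The interval takes these counts as independent and may be too narrow. The aliquots differed, at 1.12 in aliquot 1 and 0.654 in the deeper aliquot 2. Transcripts came clumped in cells: Gimap9 was found in 240 cells where 313 would be expected from its UMIs, and Gimap4 in 67 where 91.4 would. The ratio of found to expected cells was 0.733 to 0.877 over 6 members, beside a median of 0.844 over 7061 genes of 100 to 1000 UMIs. After thinning to 500 UMIs the co-detection ratio at mean rates had a median of 1.14 over 20 draws, from 0.991 to 1.33. With rates set so that each member is found in as many cells as it was, the 21 pairs had a co-detection ratio of 1.095. Pairs of other genes were not counted for comparison. Each of 4354 other genes was set against cells holding any member, a different measure. At mean rates their median ratio was 0.669 and the highest 0.885. So a ratio below 1 at mean rates was not particular to the members. With rates set to the cells that hold each gene, the median was 0.927 over 3796 genes. Of 15 pairs with at least 5 expected cells at mean rates, 8 lay above 1 with rates set to the cells holding each member. Gimap1 with Gimap6 shared 157 cells where 144 would be expected, Gimap1 with Gimap4 22 where 14.2 would, and Gimap8 with Gimap9 18 where 22.6 would.

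Gimap3 and Gimap5 stood apart. Of the 9 cells with a Gimap3 UMI, 7 held Gimap5, where 0.576 would be expected, 12.2 times (4.89 to 25.0). Their annotated transcripts share 335 stretches of 31 bases, 13.2% of those of Gimap3 and 8.02% of those of Gimap5, with 0 of them in the last 500 bases of Gimap3, and no other pair of the cluster shares any. The sources used here do not say how reads of shared stretches were divided, so the Gimap3 counts are uncertain and the part of shared sequence was not tested.

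**Figure D5:**
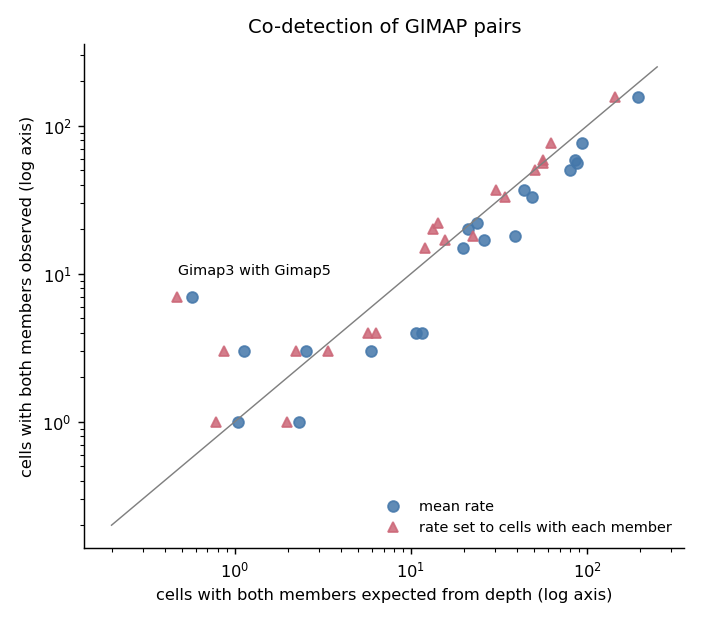
Cells in which both members of a pair were found against the number expected from depth (both axes logarithmic), for the 20 pairs found together at least once. Circles use mean rates and lie mostly right of the line of equality. Triangles use rates set to the cells that hold each member and lie on both sides of it. Gimap3 with Gimap5, at 7 observed cells, is the pair farthest from the line.

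Genes were ranked by how often they shared a cell with the family. With rates set to the cells that hold each gene, 151 of 3796 genes lay above 1 in both aliquots, and the median ratio was 0.927. The 10 highest were Socs2, Procr, Enpp4, Sult1a1, Tox, Psen2, Pcmtd1, Ormdl3, Cd74 and Ccl4, from 1.14 to 1.12. Procr, at 1.14 (1.02 to 1.28), was the only one of these whose interval excluded 1, and it was among the genes chosen for splitting cells. The ratios are small, and Socs2, a feedback inhibitor of cytokine signalling, at 1.14 (0.978 to 1.32), shows how wide their errors are. With mean rates 0 of 4354 genes lay above 1 in both aliquots.

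Transcripts of proteins that GIMAPs are known to bind or affect were read in the same cells. In G2/M cells the listed partner Hspa8 was at 1.19 times (1.14 to 1.25) its level in the others. Gsk3b, also listed, was at 0.857 times (0.673 to 1.08), an interval that included 1. The BCL-2 family controls cell death, and 10 of its 14 listed genes passed the minimum of UMIs in the G2/M comparison, 5 of them at or below the inverse of 1.5, beside 15.3% of all genes, and 0 at 1.5 or above, beside 11.7%. Mcl1, a survival protein needed by stem cells, was at 235 CPM in G2/M cells and 357 CPM in the others, 0.658 times (0.584 to 0.739). Bbc3, which encodes the death inducer PUMA, was at 27.0 CPM in G2/M cells and 54.0 CPM in the others, 0.5004 times (0.350 to 0.701). Bcl2, Bad and Bak1 went the other way. Bcl2 was at 266 CPM in G2/M cells and 178 CPM in the others, 1.49 times (1.32 to 1.69), and the death-promoting Bad and Bak1 were at 1.41 times (1.02 to 1.93) and 1.36 times (1.03 to 1.78). In Procr cells, by contrast, Mcl1 was at 0.983 times (0.865 to 1.11) and Bcl2 at 0.940 times (0.796 to 1.104), with intervals that included 1.

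The ATG8 family, small proteins that coat autophagy membranes, had all 5 listed genes measured, and 3 lay at or below the inverse of 1.5 in G2/M cells, beside the same 15.3% of all genes. Gabarapl1 was at 236 CPM in G2/M cells and 418 CPM in the others, 0.565 times (0.503 to 0.634), and Map1lc3b at 174 and 292 CPM, 0.595 times (0.519 to 0.680). Gabarapl2, the ATG8 protein bound by Gimap6, was at 75.8 and 90.8 CPM, 0.834 times (0.671 to 1.03). In Procr cells Gabarapl1 was at 1.29 times (1.16 to 1.44) and Map1lc3b at 1.25 times (1.099 to 1.43). In GFP cells 3 BCL-2 and 4 ATG8 genes passed the minimum of UMIs, with median ratios of 1.05 and 0.944. In each family 0 genes lay at or below the inverse of 1.5, beside 11.2% of all genes. In each, 1 gene reached 1.5, beside 18.1% of all genes. These were Bad, at 3.05 times (1.59 to 5.36), and Gabarapl1, at 1.56 times (1.23 to 1.96). Both rested on aliquot 2. All 13 Bad UMIs of GFP cells were from it, and Gabarapl1 was at 0.881 times (0.378 to 1.75) in aliquot 1 and 1.73 times (1.34 to 2.21) in aliquot 2.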

How the data were processed

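Bone marrow cells were encapsulated with the inDrops platform, per the labels' protocols. The authors deposited raw UMI counts per gene and droplet barcode, whole numbers with no normalization; RSEM 1.3.0, Bowtie 1.1.1, SAMtools 1.3.1 and GRCm38 are named in the submitters' processing notes without their roles. How reads shared by related genes were divided and whether strand was used are not given in the sources used here.

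Barcodes with at least 500 UMIs (the GFP row left out of totals) and no more than 20% of UMIs from mitochondrial genes were kept. UMIs were summed over cells and scaled to counts per 1e6 (CPM) with exact Poisson intervals; ratios of CPM have exact conditional binomial intervals and shares of cells Clopper-Pearson intervals, all at 95% and covering counting error only. There is 1 pool, so no test was made. Shares after thinning are the expected shares at 500 UMIs per cell. Doublets were not removed. A gene counted as different between cell sets at a ratio of at least 1.5, or at most the inverse, given 10 or more UMIs, found or expected, in the smaller cell set. The ratio and co-detection calculations were tested on simulated Poisson counts, which lack the clumping seen in the real cells. That checks the arithmetic and not how the intervals hold for clumped counts.

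The members, splits and lists were chosen with earlier results of these data known. Genes named come from the members, other Gimap features and listed BCL-2, ATG8 and other partner genes with at least 100 UMIs. The 10 genes most often found in cells with a member were named too. That last rule, at mean rates, named 0 genes, so a version with rates set to the cells holding each gene, added after the data were seen, was used. Markers of other cell types and neighbouring genes are named beside the results they touch. Cells counted by granulocyte-list UMIs, cells low in G2/M UMIs and GFP cells without a T list UMI were also added after the data were seen. Positions come from GENCODE vM21 and promoters from RefSeq on GRCm38.p6. Scripts ran in Python 3.11.15 with scipy 1.17.1, numpy 2.4.6 and matplotlib 3.10.9.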

Additional observations from a re-analysis of the deposited data

How the results depend on the processing

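No paired analysis was possible because the pool is a single group. None of the alternatives run over all depths turned the direction of the summed family in a split by Procr, Cd34, G2/M or Cd74 transcripts. Thinning was read there as the median of 20 draws, and the Cd34 draws ran from 0.792 to 1.11 around 0.926. Single depth bins did turn the direction: at 4000 or more UMIs the ratio was 1.71 for G2/M, 0.928 for Procr and 1.18 for Cd34. For Cd34 it was also 1.03 in the bin from 500 UMIs, and all these intervals included 1. The summed level, 469 CPM in all kept cells, was 446 CPM with a minimum of 1000 UMIs, 311 CPM without Gimap6, 451 CPM with members of at least 100 UMIs, 585 CPM with totals free of mitochondrial and ribosomal protein genes and 517 CPM after thinning, and was 448 to 477 CPM in single aliquots. The family ratio was 1.86 for at least 2 Procr UMIs. For Cd34, the ratio within depth and aliquot strata was 0.949. For G2/M it was 0.550 within strata, 0.523 at a threshold of 2 UMIs and 0.344 to 0.497 in single aliquots. For Cd74 it was 1.16 for at least 3 UMIs, 1.25 in cells under 3 G2/M UMIs and 1.34 to 1.72 in single aliquots. For GFP it was 0.769 without Gimap6 and 1.02 to 1.43 in single aliquots. The co-detection ratio was 1.14 after thinning, the median of 20 draws from 0.991 to 1.33. It was 1.095 with rates set to the cells that hold each member and 0.654 to 1.12 in single aliquots. The cause of these shifts was not tested. Depth limits Gimap3 and, in the 71 reporter cells, all members but Gimap6 and Gimap1.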

Other observations

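The genes that flank the cluster were measured beside it. Of 16 other features within 200000 bases of the cluster, 4 had at least 100 UMIs, namely Gm5111, Repin1, Tmem176b and Tmem176a. Tmem176b and Tmem176a encode related membrane proteins that lie past the Gimap3 end of the cluster. In cells with at least 3 G2/M UMIs, Tmem176b was at 0.661 times (0.606 to 0.720) and Tmem176a at 0.637 times (0.534 to 0.756) its level in the other cells. In cells with a Procr UMI they were at 1.23 times (1.12 to 1.33) and 1.36 times (1.15 to 1.60). Repin1, a zinc finger gene on the Gimap8 side, was at 0.831 times (0.603 to 1.13) in the G2/M set and at 1.18 times (0.828 to 1.64) in Procr cells, both with intervals that include 1. Gm5111 was at 0.786 times (0.482 to 1.24) and 1.18 times (0.700 to 1.92). These neighbours were examined after their values were seen.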
